A study of Mus musculus with 4 samples.

Results

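Alkbh5 and Fto encode the 2 enzymes known to erase N6-methyladenosine (m6A) from RNA, and both genes were followed through lists of m6A peaks from Alkbh5-HKO and Alkbh5flox/flox mouse liver. The members were the rows of both lists whose gene name is Alkbh5 or Fto: 2 of 9650 genes with a peak, carrying 1 of 14693 peaks in the HKO list and 3 of 14057 in the FF list. In methylated RNA immunoprecipitation sequencing (MeRIP-seq) fragmented RNA is pulled down with an antibody to m6A, and a peak is a stretch of exon with more immunoprecipitated (IP) than input reads. There were 4 libraries, an IP and an input from HKO livers and an IP and an input from FF livers, the abbreviation used for mice homozygous for a floxed Alkbh5 gene. The mice, fed normal chow, were taken at 9 weeks of age, and each genotype was 1 pool of 300 μg of RNA from 3 mice. HKO is not spelled out in the labels, which name neither the Cre driver nor the deleted exons, nor say which liver cells would keep the gene. With 1 pool per genotype there was no replicate, so no difference between the lists was tested.

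m6A is written on nascent RNA by a methyltransferase complex built around METTL3 and METTL14, is bound by reader proteins of the YTH family, and is removed by ALKBH5 and FTO. Both erasers belong to the AlkB family, oxygenases that need iron and 2-oxoglutarate. ALKBH5 acts on internal m6A of nuclear RNA. FTO acts on internal m6A and also on m6Am, the methylated adenosine next to the cap, which antibodies to m6A also bind. A floxed gene functions normally until Cre recombinase removes the flanked part, and FF livers were the control here.

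The first exonic bases under the FF peaks at gene starts are shown for Alkbh5 and for AlkB relatives that also had an FF peak there, chosen because the HKO list lacked these peaks. Each line covers 30 bases of RefSeq sequence (GRCm38.p6) from within the first 50 transcribed bases, 5′ to 3′, with the bases inside the FF peak in capitals.
Alkbh5, chr11:60537703-60537732, plus strand: gatttgtgcgCTGGAAGCTGAGGCGTCTGC
Alkbh1, chr12:87443790-87443819, minus strand: gaagatggcgGCTGCTGTGGCTTCATTAGC
Alkbh6, chr7:30308772-30308801, plus strand: ggcaggggggGCGTGCGAGGATGCGCGCGT
Alkbh7, chr17:56997358-56997387, plus strand: ctgaagatggCGGGCAGCAGGAGGCTAGCG
The FF peaks entered these windows at transcribed base 31 in Alkbh5 and Alkbh1 and at base 30 in Alkbh6 and Alkbh7. Outside the family, the FF peak of Alb also entered at base 31. Those of Rnf130, Gnb2 and Mettl5 entered at base 1, of Dalrd3 at base 12 and of Tsen34 at base 48. The resolution of peak edges was not examined, so a shared entry base is not read as a boundary of the mark. Since the genes were chosen for it, the absence of HKO peaks from the printed windows is no result, and of all FF peaks at gene starts 58.2% overlapped no HKO peak. The core m6A motif GGAC, searched on the transcribed strand alone because the mark is on RNA, was not among the first 50 bases of Alkbh5 or of Fto, whose RefSeq start window begins transcription at 91313525, inside the annotated span. It occurred in that stretch in 18.9% of 32851 RefSeq start windows. For Alkbh5 the stretch covers 20 bases of the peak and says nothing about the rest.

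The HKO list held 0 peaks on Alkbh5 and the FF list 3. Of all genes with a peak, 11.2% had FF peaks without any HKO peak. The lists give no level of Alkbh5 RNA, so fewer transcripts and fewer methylated transcripts cannot be told apart, nor can fewer cells with the RNA and less RNA per cell. An exon removed from the gene can give no peak, and with the deleted exons not stated, none of the 3 peaks can be placed inside or outside the deletion. The absence extended over the gene: no HKO peak under any gene name and on either strand lay within the 20830 bp span of Alkbh5 (chromosome 11, 60537683 to 60558512, 1 RefSeq transcript).

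The first FF peak on Alkbh5 ran from 60537713 to 60537893, 30 bp after the annotated start, in 1 exon block of 181 bp. Its fold over input was 18.8, above 83.3% of FF peaks and above 86.6% of FF peaks at gene starts, meaning peaks centred within 500 bp of the start. Its evidence was weak for the list, with a log10 q of -4.05, and 69.4% of FF peaks had a smaller q. A further 68 FF peaks carried exactly the same listed fold, p and q. Such ties occurred for 5233 FF peaks (37.2%), which had a median length of 180 bp and a median log10 q of -3.39, against 301 bp and -17.05 for FF peaks without one. The lists give no read counts, so how few reads lie behind a tied peak is unknown. The other Alkbh5 peaks and the Fto peak were tied with no peak.

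The second FF peak began 89 bp further on and ran from 60537983 to 60538702 as 1 unbroken block of 720 bp, longer than 94.0% of FF peaks. That gap is shorter than the RNA fragments of 100 nt, so whether the first and the second peak are separate regions is not known. Its fold was 5.22, higher than 30.4% of the list, and its log10 q was -10.1. The third FF peak lay 15553 bp downstream, from 60554256 to 60554526, in 1 block of 271 bp. It had a fold of 8.05 and, with a log10 q of -17.0, the smallest q of the 3, although 32.6% of FF peaks had a smaller one. Its centre stood at 80.2% of the gene span, 4121.5 bp before the annotated end. The highest fold, at the first peak, was 3.60 times the lowest, at the second, while the evidence by q was strongest at the third peak and weakest at the first. Together the 3 peaks covered 1172 bp of exon, and a single block was the form of 86.1% of HKO and 82.6% of FF peaks.

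**Figure D1:**
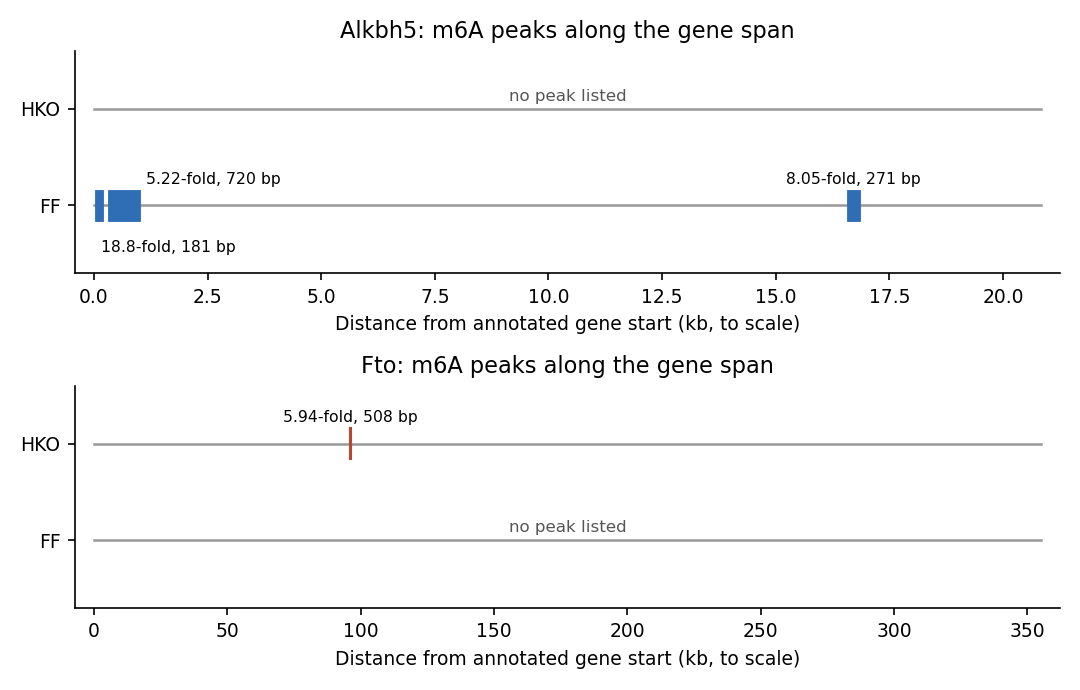
Peaks on Alkbh5 (top) and Fto (bottom) drawn to scale against distance from the annotated gene start in kb, with the HKO list above the FF list; boxes are peaks with the authors' fold over input and exonic length, and grey lines are the gene spans. Alkbh5 has 3 boxes in the FF row and 0 in the HKO row, and Fto 1 box in the HKO row and 0 in the FF row.

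The 3 Alkbh5 peaks differed in how often FF peaks of their kind had no overlapping HKO peak, where an overlap is at least 1 bp of exon on the same strand. Over the whole list 25.2% of FF peaks overlapped no HKO peak. At gene starts, the place of the first Alkbh5 peak, the share without an overlap was 58.2% (1227 of 2109). It was 39.6% for FF peaks centred 500 to 1000 bp from the start, as the second is, and 18.3% for those centred at 75 to 85% of the gene span, as the third is. The share was thus highest for the position of the first peak and lowest for that of the third. Among HKO peaks the share at gene starts was 18.2% (197 of 1084). The FF list thus held more peaks at gene starts, 2109 of 14057 against 1084 of 14693 in HKO.

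Width and strength gave lower shares. Of 920 FF peaks of 700 bp or more, 3 (0.326%, 95% Wilson interval 0.111 to 0.954, counting error alone) had no HKO overlap, and the second Alkbh5 peak was 1 of them. The other 2, picked out after their values were seen, lay on Pank1, a pantothenate kinase of coenzyme A synthesis (810 bp), and Pitx3, a homeobox transcription factor (745 bp). Pank1 had 3 other peaks in the HKO list, and Pitx3, like Alkbh5, had 0 in the HKO list and 3 in the FF list. At a minimum width of 500 bp the share was 1.23% (27 of 2191), and among FF peaks of 200 bp or less it was 51.1%. A wider peak meets the limit of 1 bp more easily, so the shares by width depend on the measure of overlap. No stricter overlap was applied to them. Among FF peaks with a q as small as that of the third Alkbh5 peak or smaller, 3.79% (174 of 4596) overlapped no HKO peak, and at the q of the second and of the first Alkbh5 peak the shares were 6.07% and 13.3%. These widths and limits were chosen with the Alkbh5 values in view.

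**Figure D2:**
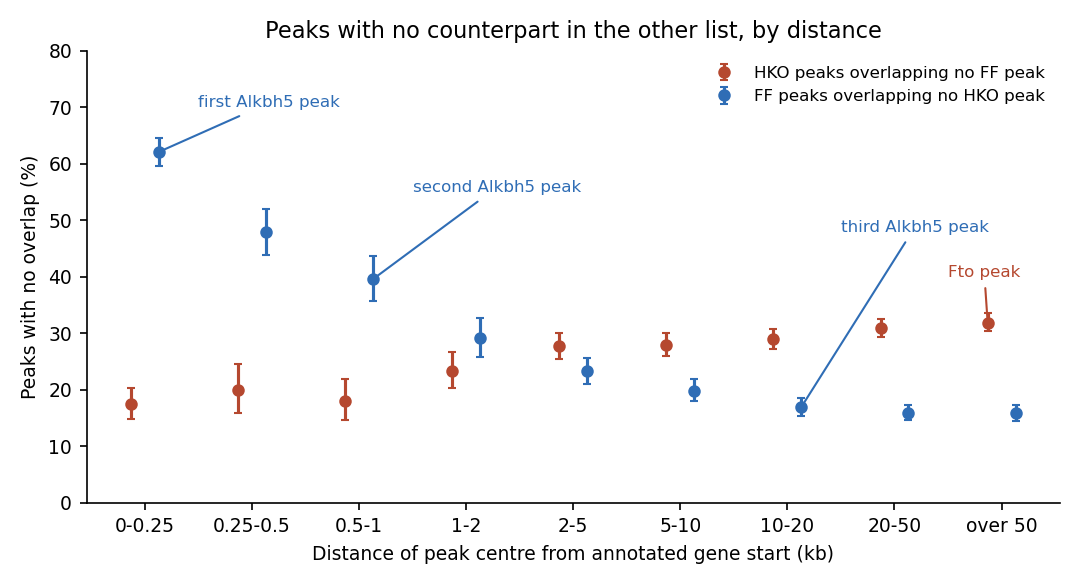
Percentage of peaks that overlap no peak of the other list (y) by distance of the peak centre from the annotated gene start in kb (x), for HKO peaks (red) and FF peaks (blue); bars are 95% Wilson intervals, which cover counting error alone, and thin lines point to the bins that hold the member peaks. For FF peaks the percentage is 62.1 in the bin of the first Alkbh5 peak, 39.6 in that of the second and 16.9 in that of the third Alkbh5 peak, and for HKO peaks it is 31.9 in the bin of the Fto peak.

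A gene without any HKO peak was rarer among genes with several FF peaks. Of genes with 1 FF peak, 20.4% had no HKO peak, of genes with 2 FF peaks 4.93%, and of the 886 genes with 3 FF peaks 1.24% (11 genes, Alkbh5 included, 0.695 to 2.21). If the first and the second Alkbh5 peak were 1 region, the share beside Alkbh5 would be the 4.93% of genes with 2 FF peaks. A further gene had more than 3 FF peaks and no HKO peak. Of 3734 genes with an FF peak as strong by q as the third Alkbh5 peak, 73 (1.96%) had no HKO peak anywhere. With peaks limited to a q of 1e-05 the share for 3 FF peaks was 0.817%, and Alkbh5, then with 2 FF peaks, was no longer among these genes. The 0.817% therefore does not apply to Alkbh5, and the share for genes with 2 FF peaks at that limit is not given here.

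The 10 other genes with 3 FF and 0 HKO peaks were ordered by how near their smallest log10 q lay to the -17.0 of Alkbh5. The nearest 5 were Rnf130, a RING finger ubiquitin ligase (-20.9), Tsen34, a subunit of the tRNA splicing endonuclease (-11.6), Dalrd3, which in human cells takes part in tRNA methylation (-9.86), Pitx3 (-9.28) and Gnb2, a G protein beta subunit (-4.94). Of all 11 genes, Alkbh5 included, 5 carried a peak whose centre lay up to 500 bp from the gene start, as Alkbh5 did, and 3 a peak centred up to 1000 bp from the gene end, as Alkbh5 did not. The shares over all genes with 3 FF peaks are not given here, so these counts are not set apart from them. The likeness is one of peak counts and q over 2 lists and carries nothing further.

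The nearest genes with a peak on chromosome 11 had overlapping peaks in both lists, apart from Drg2. Llgl1, a cell polarity gene 141 kb beyond the 3′ end of Alkbh5, had an overlapping peak in both lists, with folds of 8.91 in HKO and 8.62 in FF. Flii, an actin regulator next to it, had overlapping peaks with folds of 3.68 in HKO and 3.88 in FF, and Gid4, a substrate receptor of a ubiquitin ligase on the other side, with 4.75 in HKO and 3.66 in FF. Drg2, a GTP-binding protein gene 68.9 kb upstream, had 1 HKO peak (fold 2.13, log10 q -3.78) and 0 FF peaks. This Drg2 peak was the HKO peak nearest to Alkbh5, 69.3 kb from the first FF peak. Folds of separate IP reactions set side by side give no direction of change.

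Fto showed the opposite listing, with 1 HKO peak and 0 FF peaks. Of all genes with a peak, 13.2% had HKO peaks without any FF peak, and among the 4788 genes with 1 HKO peak 22.8% lacked FF peaks. The gene spans 355 kb of chromosome 8 (91313367 to 91668433, 2 RefSeq transcripts), longer than 98.7% of genes with a peak. Of 155 genes spanning 300 kb or more, 16.1% (95% Wilson interval 11.2 to 22.7) were in the HKO list and not the FF list and 9.03% the reverse. The share for long genes had an interval that takes in the 13.2% of all genes.

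The Fto peak ran from 91409309 to 91409816 on the plus strand, in 1 exon block of 508 bp. Its centre lay 96196 bp from the gene start, at 27.1% of the span, and thus near neither end of the gene. Of HKO peaks centred at 20 to 35% of the gene span, 32.5% overlapped no FF peak, against 28.5% of all HKO peaks. Its fold was 5.94, higher than 29.7% of HKO peaks, and its log10 q was -13.3, with 40.5% of the list having a smaller q. It was longer than 83.2% of HKO peaks. The shares by width and by q were lower than that by position: 1.62% of HKO peaks of 500 bp or more (41 of 2536) and 7.56% of those with as small a q (452 of 5979) overlapped no FF peak. The share by width again depends on the measure, since wider peaks overlap more easily. Of genes with an HKO peak of that q or smaller, 3.50% (163 of 4656) had no FF peak at all. The window, the width and the q limit were set around the Fto values, and Fto itself is counted in each share.

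No FF peak under any name lay within the Fto span on either strand, and the nearest FF peak was 285 kb away on Aktip. The nearest genes with a peak had them in both lists. Aktip, which encodes an AKT-interacting protein, had overlapping peaks with folds of 4.31 in HKO and 4.16 in FF, and Rbl2, a member of the retinoblastoma family, with 10.2 in HKO and 15.5 in FF. On the far side the nearest were the carboxylesterase genes Ces1b and Ces1c, over 1388 kb away, each with 2 HKO and 2 FF peaks, all of which overlapped. These genes have close copies that may share reads, so their peaks are uncertain.

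Another 1093 genes had 1 HKO peak and 0 FF peaks. Those with a log10 q nearest to the -13.3 of Fto were 4930404H11Rik (-13.3), Mtx1, a gene of mitochondrial protein import (-13.3), Eif4a1, a helicase of translation initiation (-13.4), Vps50, a gene of endosomal recycling (-13.4), and Polr2e, an RNA polymerase subunit (-12.8). In each of these 5 the centre of the HKO peak lay up to 1000 bp from the gene end, at 295, 147.5, 120, 718 and 163.5 bp in that order. The Fto peak lay 258871 bp from the gene end. The share of all HKO peaks centred up to 1000 bp from the gene end is not given here. Neither these 5 genes nor Fto can therefore be called unusual in this.

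**Figure D3:**
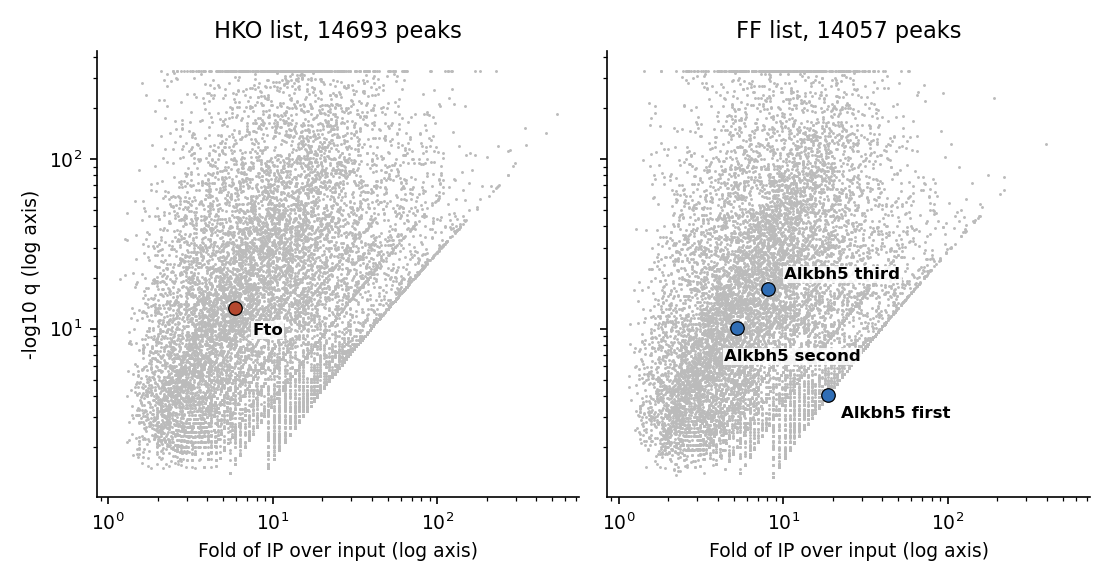
Fold of IP over input (x, log axis) against -log10 q (y, log axis) for every peak of the HKO list (left) and the FF list (right), with peaks listed at minus infinity drawn at the top; large circles are the Fto and Alkbh5 peaks. The Fto peak (5.94) and the second and the third Alkbh5 peaks (5.22 and 8.05) lie within the body of each list, and the first Alkbh5 peak (18.8) lies on its lower right edge, where fold is highest for a given q.

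Of 7 other AlkB family genes, 5 had a peak: 3 in both lists, 0 in HKO alone and 2 in FF alone, with 4 HKO and 6 FF peaks in all. Over all genes with a peak the shares were 75.6% in both lists, 13.2% in HKO alone and 11.2% in FF alone, and counts this small are not set apart from them. Alkbh6 (fold 14.1, log10 q -2.75) and Alkbh7, a mitochondrial member (fold 2.44, log10 q -2.76), had 0 HKO peaks and 1 FF peak each, and both FF peaks began in the start windows printed above. The Alkbh6 peak ran over 3 exon blocks of 149 bp in total and was centred 749.5 bp of gene span from the start, and that of Alkbh7 was centred 103 bp from it. These q values are far larger than those of the second and the third Alkbh5 peaks.

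Alkbh1, a demethylase of tRNA, had 1 HKO and 2 FF peaks. The HKO peak (fold 15.3) overlapped the FF peak near the gene end (fold 4.02), while the FF peak centred 75.5 bp from the start (fold 11.7, log10 q -2.12) had no HKO overlap. Alkbh4 had 2 HKO and 1 FF peaks, with 1 overlap, at folds of 27.2 in HKO and 4.18 in FF. Alkbh2, a DNA repair enzyme, had 1 peak in each list at opposite ends of the gene, in HKO 165.5 bp from the start (fold 8.06, log10 q -2.61) and in FF 210.5 bp from the end (fold 5.98, log10 q -12.2). This is the reverse of the placement seen for Alkbh1, where the FF peak lacking an overlap was at the start. Alkbh3, another repair enzyme, and Alkbh8, a tRNA-modifying enzyme, had 0 peaks in both lists.

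**Figure D4:**
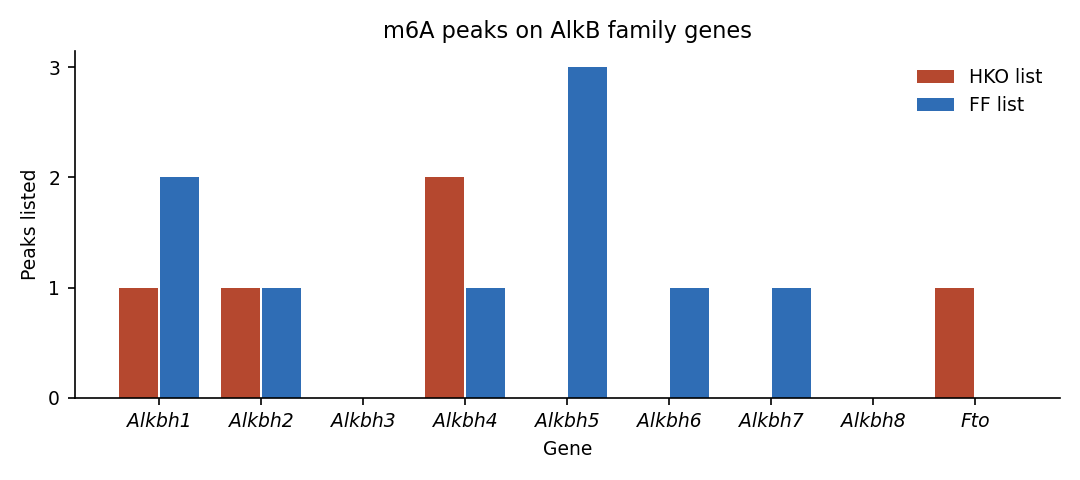
Number of m6A peaks (y) listed for each AlkB family gene (x) in the HKO list (red, left bar) and the FF list (blue, right bar); a missing bar stands for 0 peaks. Alkbh5 has 0 HKO and 3 FF peaks, the most FF peaks of the family, and Fto 1 HKO and 0 FF peaks.

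Among other enzymes with the iron and 2-oxoglutarate chemistry, 5 of 7 had a peak, and those 5 had peaks in both lists. The share over all genes was 75.6%, and a count this small is not set apart from it. Their peaks numbered 12 in HKO and 10 in FF. They were Tet2 and Tet3, which oxidise methylcytosine in DNA, with 3 HKO and 2 FF peaks each, and Egln1, Egln2 and Egln3, the oxygen-sensing prolyl hydroxylases, with 3, 2 and 1 in HKO and 3, 2 and 1 in FF. Tet1 and Hif1an had none. Pcif1, the methyltransferase that makes m6Am at the cap, had 2 HKO and 3 FF peaks, of which 1 HKO and 1 FF peak overlapped each other. The others did not, namely an HKO peak (fold 14.4) centred 4639.5 bp from the gene start and FF peaks centred 165.5 bp (fold 4.70) and 4949.5 bp (fold 5.29) from it. At the start of Egln1, by contrast, the FF peak centred 388.5 bp from the gene start (fold 14.6) overlapped the HKO peak centred 448 bp from it (fold 2.52). Mettl4, which makes m6Am in small nuclear RNA, had 2 HKO peaks and 1 FF peak.

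For the genes that write m6A, peaks were listed for 10 of 11 writer genes, 8 of them in both lists, with Mettl14 in the HKO list alone and Mettl5 in the FF list alone. The 10 readers with a peak, of 14 examined, had peaks in both lists, although the HKO and the FF peak of Hnrnpc did not overlap. These counts stand beside 75.6% of all genes in both lists, and no difference between writers, readers and the 2 erasers was tested.

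Over the whole lists the median fold was 10.4 in HKO and 8.80 in FF, and the median exonic length 269 bp in HKO and 241 bp in FF. The weakest listed log10 q was -1.41 in HKO and -1.33 in FF, so a peak just short of these values would not be seen. Each of the 8 hepatocyte markers examined had a peak in at least 1 list. There were 4 in both (Apoa1, Apob, Hnf4a and Tat), 3 in HKO alone (Ttr, Cps1, Cyp2e1) and 1 in FF alone (Alb). All genes stood at 75.6%, 13.2% and 11.2% in that order. The Tat peaks of the 2 lists did not overlap. The smallest log10 q was minus infinity for Cyp2e1 (fold 12.5), -279 for Ttr (1.61) and -3.97 for Cps1 (2.79) in HKO. It was -175 for Alb (1.57) in FF. Except for Cps1, these q values were smaller than that of any Alkbh5 or Fto peak. Of markers of other cells, 2 of 5 for Kupffer cells, 3 of 4 for endothelial cells, 3 of 4 for stellate cells and 1 of 3 for cholangiocytes had a peak, in both lists except for Dcn of stellate cells, with 2 HKO and 0 FF peaks. Clec4f of Kupffer cells had 3 HKO and 3 FF peaks and Kdr of endothelial cells 2 HKO and 2 FF peaks, while the leukocyte markers Ptprc, Cd3e and Cd79a had 0 in both lists. A peak does not measure the level of an RNA.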

How the data were processed

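MeRIP-seq was made from 1 pool of liver RNA of 3 mice per genotype. The series design text says that the authors called peaks per genotype, IP against input, with exomePeak 2.16.0, and kept q-values up to 0.05; fastp 0.19.11, BWA 0.7.12, HOMER 4.9.1 and GRCm38.p6 are named in the submitters' processing notes. The antibody and library kit differ between the design text and the labels' protocols and were not settled. The deposited score column is a p-value per peak. The columns of log10 p, log10 q and fold enrichment were read by their names, the fold being taken as the authors' ratio of IP to input. The log10 q of some peaks was listed as minus infinity. These values serve to describe or rank peaks within a list. Depth per library is unknown, since the lists hold no read totals.

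Coordinates are 1-based. Peaks were compared by exon blocks (at least 1 bp, same strand) and by gene name with Python 3.11.15, pandas 2.3.3 and numpy 2.4.6, after a test of the overlap step on simulated data. Intervals are Wilson, from statsmodels 0.14.6. Gene spans and start windows came from RefSeq. With no replicate, no test was run. Alkbh5 and Fto were named with all their peaks, relatives and neighbours by fixed lists (the nearest 2 genes with a peak on each side), and like genes by equal peak counts and nearest log10 q. Members and lists were chosen with earlier results of these data known. Alternatives varied the q, the fold, the list length, the assignment to genes, the overlap and the start window. The sequence under the peaks beyond the start windows was not analysed here.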

Additional observations from a re-analysis of the deposited data

How the results depend on the processing

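The counts of 0 HKO and 3 FF peaks on Alkbh5 and of 1 HKO and 0 FF peaks on Fto held with a fold of 2 or more, with the HKO list shortened by q to the 14057 peaks of the FF list, and with peaks assigned by position on the same or on either strand. A limit on q or fold and a shorter list can only remove peaks, so under them a count of 0 was fixed in advance. All 4 folds were 5.22 or more, so the fold limit could remove none of them. These settings say nothing about weaker peaks that were not listed. At a q of 1e-05 or less, the first Alkbh5 peak dropped out, which left 0 HKO and 2 FF peaks, and Fto kept 1 HKO and 0 FF peaks. None of the 4 peaks met a peak of the other list when centres within 500 bp, either strand, or 50% of each peak counted. The nearest peak of the other list on either strand lay at least 69.3 kb away, so these settings could not have given another result. The background shares also changed. At a q of 1e-05, a fold of 2 and equal list lengths in turn, the share of genes in the HKO list alone was 15.8%, 14.1% and 11.95%, and in the FF list alone 9.65%, 11.9% and 12.3%. The share of genes with 1 HKO peak that had no FF peak was 23.3%, 24.2% and 20.9%, and that of genes with 3 FF peaks that had no HKO peak 0.817%, 1.34% and 1.24%. The share of FF peaks at gene starts with no HKO overlap was 63.9% within 200 bp, 54.2% within 1000 bp and 54.2% at a q of 1e-05. No paired analysis was possible because there was 1 pool a genotype. How depth limits either list is unknown.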
